A study of Homo sapiens with 4 samples.

Results

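Mitochondrial ribosomal protein genes were followed in 143B cells, a human osteosarcoma line, after depletion of CBX3, a heterochromatin protein of the HP1 family. Members were the rows of the deposited gene table whose symbol is MRPL or MRPS followed by a number and, at most, a letter from A to D. This gave 78 genes of 37450 in the table, 49 named for the large subunit (MRPL) and 29 for the small subunit (MRPS), and all 78 passed the filter on low counts that left 20999 genes for testing. The siCBX3 group was 2 libraries of 143B cells transfected with siRNA against CBX3, and the siNC group was 2 libraries of the same line transfected with a non-targeting siRNA. Both groups are labelled wild type, were transfected with Lipofectamine RNAiMAX and were taken on day 2, so each carries the transfection itself. All libraries come from 1 cell line. How many siRNAs were used, their sequences, and whether replicates were separate cultures are not stated in the labels. The p-values therefore cover only the variation among these 4 libraries, which may be technical in origin.

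Mitochondria make a small set of respiratory chain subunits from their own genome with a dedicated ribosome, the mitoribosome. Its ribosomal RNAs are mitochondrial, but its proteins are encoded in the nucleus, made in the cytosol and imported. The small subunit binds and decodes the mRNA, and the large subunit forms the peptide bond and releases the chain through an exit tunnel into the inner membrane. Some of these proteins have bacterial counterparts and others are found only in mitochondria, and the promoters of many nuclear mitochondrial genes are known for sites of the factors NRF1, YY1 and the ETS family member GABP.

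Total counts were 36509298 and 38717507 in the siCBX3 libraries and 37318382 and 40336907 in the siNC libraries, and the lowest count of any mitochondrial ribosomal protein gene in any library was 158. The targeted gene CBX3 had 2020 and 2163 counts in the siCBX3 libraries, against 20311 and 21384 in the siNC libraries, which left 10.9% of the siNC level. Mesenchymal genes differed widely in level. SPARC had 1720 and 1650 CPM (counts scaled to a common library size) in siCBX3 and 361 and 297 CPM in siNC. COL1A1 was at no more than 17.8 CPM and RUNX2 at no more than 5.89 CPM. The osteoblast genes ALPL, SP7 and IBSP had at most 4 counts in any library. The summed level of 10 osteoblast and mesenchymal markers was 3420 and 3360 CPM in siCBX3, against 1090 and 1160 CPM in siNC. Nearly all of it came from SPARC, VIM and COL5A1. The summed level of 5 epithelial markers was 757 and 783 CPM in siCBX3, against 1310 and 1350 CPM in siNC, nearly all from KRT8 and KRT18, while CDH1 had at most 8 counts. The 5 leukocyte markers summed to 636 and 584 CPM in siCBX3 and to 436 and 416 CPM in siNC, nearly all from CD68, with PTPRC at no more than 0.482 CPM. The 4 endothelial markers summed to 2.80 and 1.79 CPM in siCBX3 and to 2.81 and 2.63 CPM in siNC. The part of these marker differences in the results below was not tested.

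More mitochondrial ribosomal protein genes were lower than higher after CBX3 depletion, and the differences were small. Of the 78 genes, 37 fell, 3 rose and 38 did not pass the test, where passing means a Benjamini-Hochberg adjusted p under 0.05 in edgeR's quasi-likelihood test across all tested genes. Differences were widespread in the transcriptome, and 48.4% of all tested genes passed, 24% lower and 24.4% higher in siCBX3. Set against that background, 47.4% of the mitochondrial ribosomal protein genes were lower and 3.85% were higher. Among tested genes at or above the level of the weakest mitochondrial ribosomal protein gene, 29.0% were lower and 32.0% higher. Among tested protein-coding genes, 28.7% were lower and 27.3% higher. The median log2 fold change (siCBX3 over siNC) of the 78 genes was -0.15, against -0.01 over all tested genes, and 58 of the 78 had a value below 0. The values ran between -1.11 for MRPL37 and 0.64 for MRPL15, and 62 of the 78 were smaller than 0.5 in size. Only MRPL37 passed the test with a change of at least 1 on the log2 scale, a size that 12.8% of all tested genes passed with. Without siCBX3 replicate 1 the count of lower genes was 27, and without siNC replicate 2 the count of higher genes was 5.

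**Figure D1:**
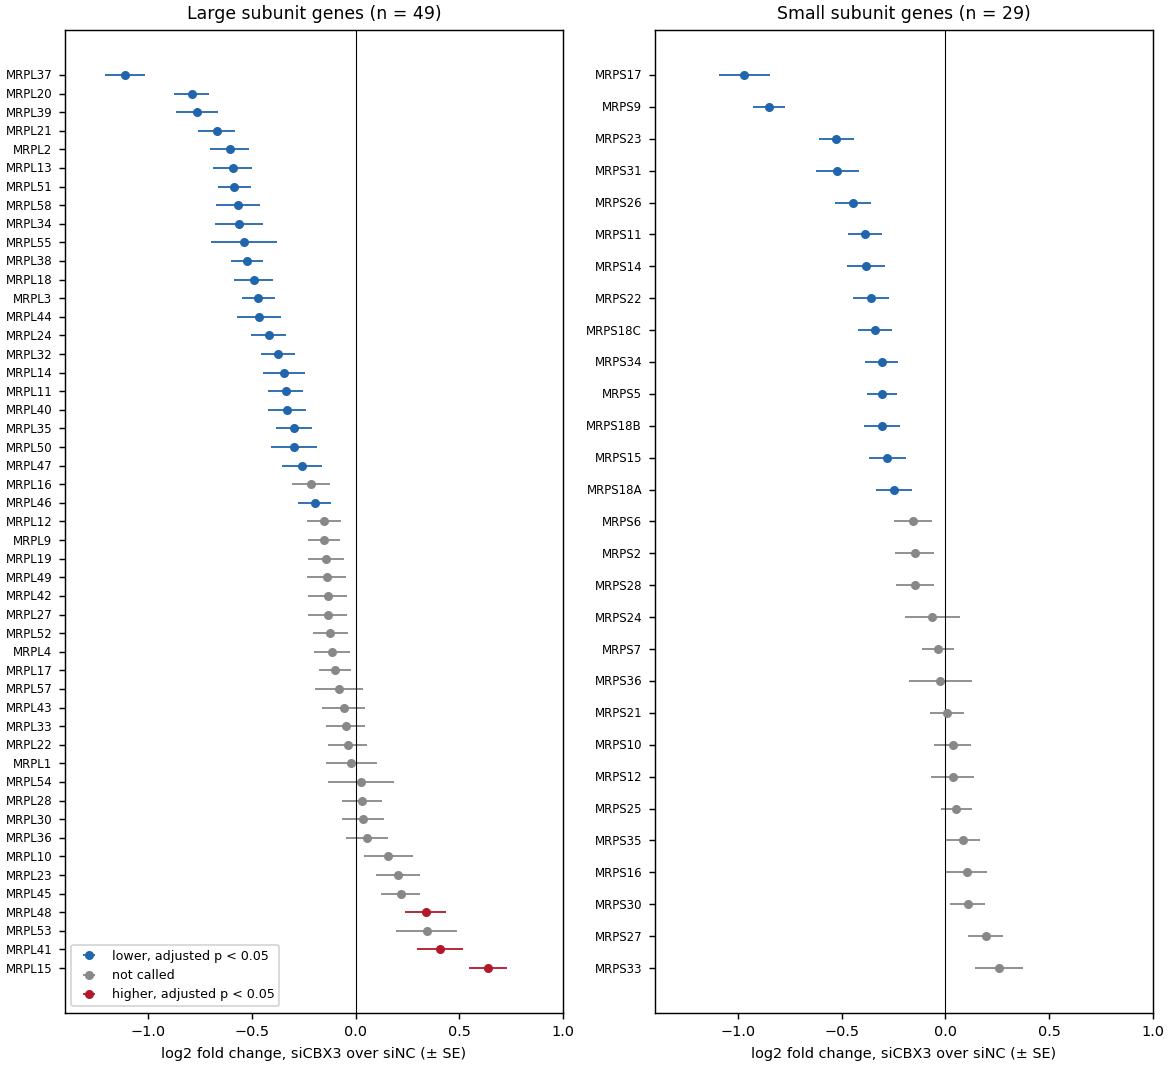
Log2 fold change of each mitochondrial ribosomal protein gene, siCBX3 over siNC, as points with bars of 1 SE, in 2 panels for the 49 large-subunit and 29 small-subunit genes, coloured by the call at adjusted p under 0.05. Both panels hold a run of lower genes on the left, led by MRPL37 at -1.11 and MRPS17 at -0.97, and the 3 higher genes are all in the large-subunit panel.

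Promoter sequences of genes at both ends of the range are shown because promoters of this gene class are known for ETS, YY1 and NRF1 sites. RefSeq promoter windows (build GRCh38.p14, 250 bases before the transcription start to 50 after) were found for 69 of the 78 genes, and for none of MRPL2, MRPL10, MRPL13, MRPL15, MRPL21, MRPL23, MRPL35, MRPS28 and MRPS36. Both strands were searched for an ETS motif (CCGGAAG), a YY1 motif (AA, then any base, then ATGGCG), an SP1 motif (GGGCGG) and an NRF1 motif (GCGCA, then any base, then GCGC). Capitals mark NRF1, ETS and YY1 matches, on either strand. Shown are the 4 genes with the most negative fold changes and MRPL41, the gene with the highest fold change among those with a window.
MRPL37, chr1:54199917-54200216, plus strand: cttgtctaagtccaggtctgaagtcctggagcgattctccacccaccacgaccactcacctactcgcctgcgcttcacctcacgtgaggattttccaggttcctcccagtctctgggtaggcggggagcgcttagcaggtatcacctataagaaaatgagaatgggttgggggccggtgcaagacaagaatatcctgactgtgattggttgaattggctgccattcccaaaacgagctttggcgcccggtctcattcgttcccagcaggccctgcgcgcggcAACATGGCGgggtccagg
MRPS17, chr7:55951627-55951926, plus strand: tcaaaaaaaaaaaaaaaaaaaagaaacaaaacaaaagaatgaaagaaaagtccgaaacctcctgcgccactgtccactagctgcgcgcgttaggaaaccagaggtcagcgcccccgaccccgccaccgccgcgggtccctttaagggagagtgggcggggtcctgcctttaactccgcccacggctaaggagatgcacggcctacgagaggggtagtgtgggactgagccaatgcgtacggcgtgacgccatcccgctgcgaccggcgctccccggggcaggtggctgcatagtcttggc
MRPS9, chr2:105037819-105038118, plus strand: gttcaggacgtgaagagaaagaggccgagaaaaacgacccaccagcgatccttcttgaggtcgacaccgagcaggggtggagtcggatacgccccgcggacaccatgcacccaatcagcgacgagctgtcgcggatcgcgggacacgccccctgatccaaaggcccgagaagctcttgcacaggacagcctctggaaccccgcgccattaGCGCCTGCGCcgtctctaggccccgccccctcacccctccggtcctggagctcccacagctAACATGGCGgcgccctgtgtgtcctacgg
MRPL20, chr1:1407244-1407543, minus strand: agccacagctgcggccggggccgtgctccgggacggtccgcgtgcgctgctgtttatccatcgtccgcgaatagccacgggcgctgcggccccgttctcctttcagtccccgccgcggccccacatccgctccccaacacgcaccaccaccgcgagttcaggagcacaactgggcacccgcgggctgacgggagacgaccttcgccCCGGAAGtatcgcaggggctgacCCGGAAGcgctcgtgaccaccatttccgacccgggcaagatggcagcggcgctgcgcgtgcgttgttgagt
MRPL41, chr9:137551629-137551928, plus strand: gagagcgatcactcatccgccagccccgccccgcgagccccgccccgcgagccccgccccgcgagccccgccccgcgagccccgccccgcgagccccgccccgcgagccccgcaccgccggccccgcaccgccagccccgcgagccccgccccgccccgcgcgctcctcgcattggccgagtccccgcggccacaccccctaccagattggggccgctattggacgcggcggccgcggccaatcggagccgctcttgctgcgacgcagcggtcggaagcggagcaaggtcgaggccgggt

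The MRPL37 and MRPL41 windows lie inside the annotated spans of their genes, which start at bases 54184041 and 137551199. They therefore do not cover the 5' ends of those spans. The MRPL37 window held a YY1 match near its end, and the MRPS9 window held an NRF1 match on its minus strand and a YY1 match. The MRPL20 window held ETS matches at 2 positions. The MRPS17 and MRPL41 windows held none of these 3 motifs, but had SP1 matches, 2 in MRPS17 and 8 in the GC-rich MRPL41 window. An ETS match was found in 29 of the 69 windows (42.0%), against 17.2% of the windows of tested genes and 10.7% of all windows of the same length. A YY1 match was found in 18 (26.1%), against 6.15% of tested and 3.37% of all windows. NRF1 matches were in 8 windows (11.6%), against 10.6% of tested and 6.28% of all windows, and SP1 matches in 42 (60.9%), against 67.6% and 44.6%. In 1 window, matches of different motifs overlapped. ETS or YY1 or both were matched in 43 windows (62.3%), against 22.2% of tested windows, while the median GC content was 60.3% in the member windows and 65% in tested windows.

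Genes with and without an ETS or a YY1 match had medians close to each other. Of the 29 genes with an ETS match 14 were lower and 1 was higher (median log2 fold change -0.21), and of the 40 without, 19 were lower and 1 was higher (median -0.15). Of the 18 genes with a YY1 match 9 were lower and 0 higher (median -0.17), and of the 51 without, 24 were lower and 2 higher (median -0.16). The 8 genes with an NRF1 match had 2 lower and 0 higher (median -0.02), against 31 lower and 2 higher of 61 without (median -0.21). Over the windows of tested genes, 601 genes were lower and 489 higher of 2005 with an ETS match (median -0.03), against 2650 lower and 2697 higher of 9619 without. Of 715 tested genes with a YY1 match 224 were lower and 168 higher (median -0.04), and of 1230 with an NRF1 match 371 were lower and 308 higher (median -0.04). A match describes the letters of the window and does not show that a factor binds there.

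Counts and medians of the large and the small subunit were close to each other. Of the 49 large-subunit genes 23 fell and 3 rose, with a median log2 fold change of -0.15, and of the 29 small-subunit genes 14 fell and 0 rose, with a median of -0.16. At an unadjusted p under 0.05 in the same test 2 small-subunit genes were higher, and with DESeq2 the number of higher small-subunit genes was 0 as well. Structures of the mitoribosome place MRPS18A and MRPS30 in the large subunit, and MRPS36 is now known as a part of the 2-oxoglutarate dehydrogenase complex. Leaving out 1 library turned the order of the medians, which were -0.10 (large) and -0.19 (small) without siNC replicate 2, and -0.24 (large) and -0.18 (small) without siNC replicate 1. Counted by structure, 24 of 51 large-subunit genes were lower and 3 higher (median -0.15), and 13 of 26 small-subunit genes were lower and 0 higher (median -0.22). The CPM values of the 2 groups did not overlap for 59 of the 78 genes, where 73.9% of all tested genes did not overlap. Of these 59, 32 large-subunit and 17 small-subunit genes were lower in siCBX3, a direction in which 37.4% of all tested genes did not overlap. The other 7 large-subunit and 3 small-subunit genes were higher in siCBX3, where 36.4% of all tested genes did not overlap.

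**Figure D2:**
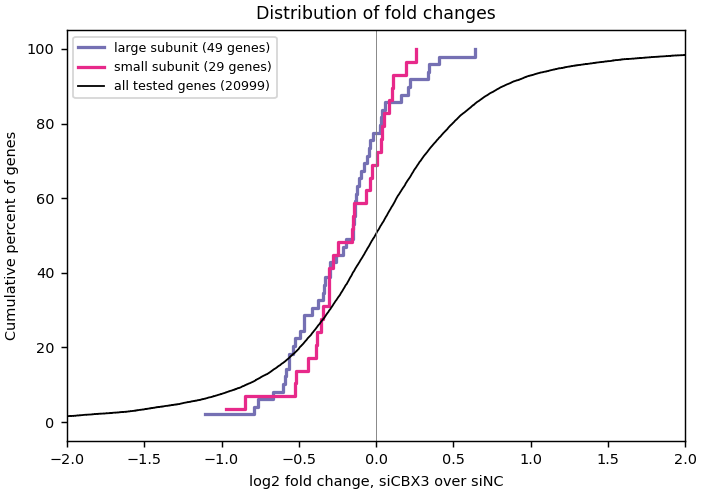
Cumulative percent of genes (vertical axis) at or below each log2 fold change, siCBX3 over siNC (horizontal axis), for 49 large-subunit genes, 29 small-subunit genes and all 20999 tested genes. The curves of both subunits lie close to each other, with medians of -0.15 and -0.16, and are narrower than the curve of all tested genes.

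The summed level of each subunit's transcripts was lower in both siCBX3 libraries than in both siNC libraries. The 49 large-subunit genes summed to 1503.4 and 1489.2 CPM in siCBX3 and to 1753.4 and 1804.9 CPM in siNC, a difference of -15.9%. The 29 small-subunit genes summed to 1512.3 and 1562.2 CPM in siCBX3 and to 1757.7 and 1806.7 CPM in siNC, a difference of -13.7%. Without the members that share exon bases with other tested genes, the differences were -10.4% for the large and -13.0% for the small subunit. The ratio of the large to the small sum was 0.994 and 0.953 in siCBX3 and 0.998 and 0.999 in siNC. Both siCBX3 ratios lay below both siNC ratios, that of replicate 1 only just, and the means of 0.974 ± 0.0288 in siCBX3 and 0.998 ± 0.00099 in siNC (SD, n = 2) differed by less than the spread of siCBX3. Together the genes held 0.291% and 0.299% of all counts in siCBX3 and 0.355% and 0.377% in siNC. The sums are in TMM-scaled CPM, and the shares are of library totals. Both come from bulk RNA, in which a change in the mix of cells cannot be told apart from less RNA per cell.

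**Figure D3:**
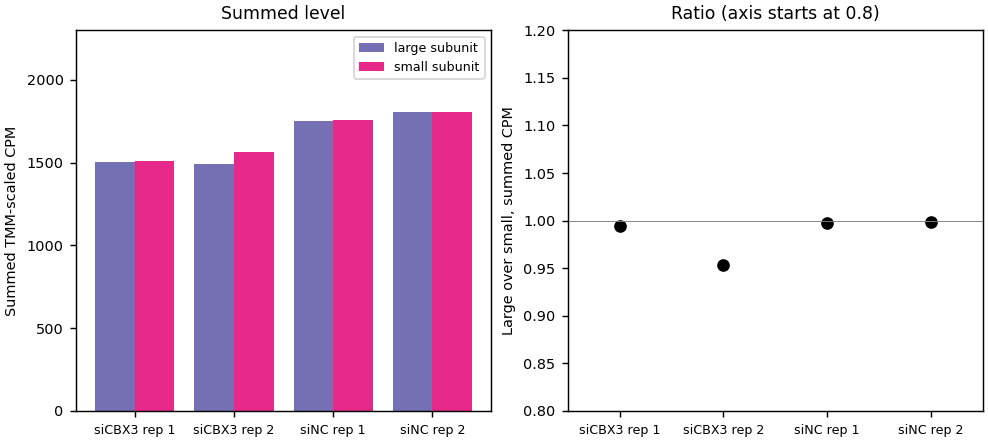
Summed level in TMM-scaled CPM of the 49 large-subunit and 29 small-subunit genes in each library (bars, left) and the ratio of the sums in each library (points, right, with an axis that starts at 0.8). The sums lie between 1489.2 and 1562.2 CPM in the siCBX3 libraries and between 1753.4 and 1806.7 CPM in the siNC libraries, while the ratio lies between 0.953 and 0.999.

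On the RPKM scale, which divides each count by annotated exon length and total count, the mitochondrial ribosomal protein genes ran from MRPL42 to MRPS34. MRPS34, a mitochondria-specific small-subunit protein, had 66.5 and 67.1 RPKM in siCBX3 and 81.2 and 93.6 RPKM in siNC. MRPL12, a stalk protein that is also known to bind the mitochondrial RNA polymerase, had 53.1 and 50.9 RPKM in siCBX3 and 56.4 and 65.8 RPKM in siNC. MRPL51, a mitochondria-specific large-subunit protein, had 37.1 and 35.1 RPKM in siCBX3 and 56.3 and 57.9 RPKM in siNC. In each of these genes both siCBX3 libraries lay below both siNC libraries, and MRPS34 and MRPL51 passed the test while MRPL12 did not (adjusted p = 0.137 by edgeR's quasi-likelihood test). MRPL12 shares 68.2% of its exon bases with RP13-1032I1.10 on the same strand. That gene averaged 56.8 CPM in siCBX3 and 64.2 CPM in siNC (log2 fold change -0.18), so the level of MRPL12 alone is not known. MRPL12 passed in the fit without siNC replicate 1 (log2 fold change -0.24, adjusted p = 0.0234). MRPL42, another mitochondria-specific protein, was lowest at 1.56 and 1.88 RPKM in siCBX3 and 1.92 and 2.07 RPKM in siNC. Its annotated exons cover 16393 bases, against a median of 2501.5 over the members. By CPM it had 26.5 and 31.6 in siCBX3 and 31.2 and 32.5 in siNC, near the member median of 30.3 over both groups. Over all members the summed RPKM was 667 ± 6.02 for the large and 519 ± 15.3 for the small subunit in siCBX3, and 828 ± 38.2 and 647 ± 31.1 in siNC (SD, n = 2). The ratio of the sums was then 1.321 and 1.251 in siCBX3 and 1.282 and 1.278 in siNC, so the siNC values lay between those of siCBX3 and the mean was slightly higher in siCBX3 (1.286 against 1.28).

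MRPL37, a mitochondria-specific protein of the large subunit, had the most negative fold change of all members. Its gene lies at chr1:54184041-54225464 on the plus strand, with 11 merged exon blocks of 2549 bases in the table's annotation. It had 711 and 733 counts in siCBX3 and 1747 and 1639 in siNC, or 20.2 and 19.3 CPM against 46.4 and 38.9 CPM. The groups lay far apart, with 46.4% of the siNC level left (log2 fold change -1.11, SE 0.10, adjusted p = 1.06e-09). In structures MRPL37 and MRPS30 are related proteins placed in the same subunit. MRPS30 had 36.8 and 36.5 CPM in siCBX3 and 34.1 and 34.0 CPM in siNC, and did not pass (log2 fold change 0.11, SE 0.08, adjusted p = 0.309).

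The next large-subunit genes in order fell by a smaller amount. MRPL20, which has a bacterial counterpart that binds ribosomal RNA early in assembly, had 25.7 and 25.8 CPM in siCBX3 and 43.7 and 45.2 CPM in siNC (log2 fold change -0.79, SE 0.09, adjusted p = 4.41e-08). MRPL39, a mitochondria-specific protein, had 14.8 and 16.3 CPM in siCBX3 and 27.7 and 25.0 CPM in siNC (-0.76, SE 0.10, adjusted p = 8.83e-07). MRPL21, with a bacterial counterpart, had 28.2 and 31.3 CPM in siCBX3 and 49.7 and 44.9 CPM in siNC (-0.67, SE 0.09, adjusted p = 1.05e-06). In all of them the higher siCBX3 library was below the lower siNC library, and MRPL39 and MRPL21 overlap no exon of another tested gene. MRPL13 and MRPL51 fell by 0.59 and 0.58 on the log2 scale, and MRPL51 shares 31.3% of its exon bases with NCAPD2 on the opposite strand (-0.51). MRPL58, a peptidyl-tRNA hydrolase built into the subunit that can free stalled chains, had 13.9 and 16.2 CPM in siCBX3 and 23.2 and 21.3 CPM in siNC (-0.56, adjusted p = 9.12e-05). MRPL55, a weakly expressed member, had 4.88 and 4.17 CPM in siCBX3 and 5.94 and 7.14 CPM in siNC (-0.54, adjusted p = 0.00768). MRPL55 no longer passed without siCBX3 replicate 2 (-0.42, adjusted p = 0.0786) or without siNC replicate 2 (-0.39, adjusted p = 0.0897).

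**Figure D4:**
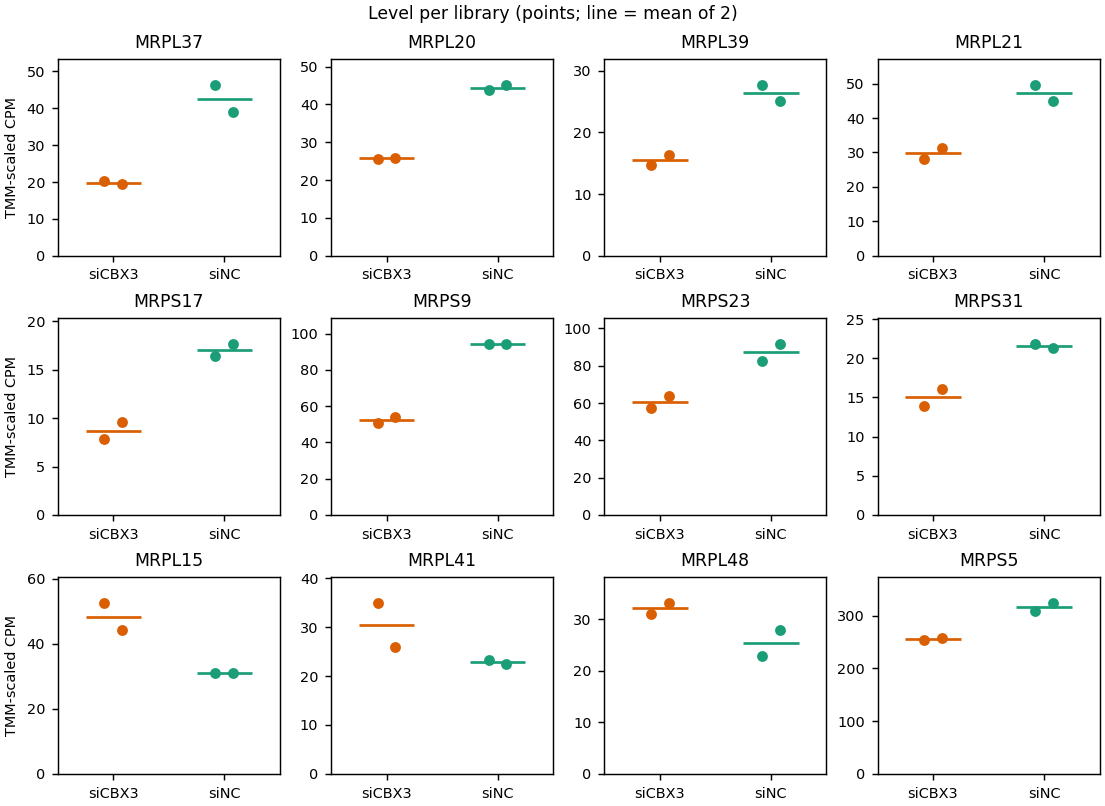
TMM-scaled CPM of 12 mitochondrial ribosomal protein genes in each library, siCBX3 left and siNC right, as points, with a line at the mean of the 2 libraries, on axes that start at 0. The top row shows lower large-subunit genes, the middle row lower small-subunit genes, and the bottom row the 3 higher genes (MRPL15, MRPL41, MRPL48) and MRPS5, at 254 and 257 CPM in siCBX3 against 308 and 324 CPM in siNC.

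Structural regions of the large subunit were grouped from textbook knowledge after the values had been seen, so their counts are a description, to be read against 24% lower and 24.4% higher over all tested genes. Of the 4 proteins whose bacterial counterparts lie around the catalytic core, MRPL2 and MRPL3 fell, while MRPL4 and MRPL16 did not pass. MRPL2 had 21.0 and 19.1 CPM in siCBX3 and 29.8 and 31.2 CPM in siNC (log2 fold change -0.61, SE 0.09, adjusted p = 9.34e-06). MRPL3 had 57.8 and 53.9 CPM in siCBX3 and 78.7 and 76.0 CPM in siNC (-0.47, adjusted p = 2.63e-05), and MRPL16 and MRPL4 had values of -0.21 and -0.11. All of these genes had both siCBX3 libraries below both siNC libraries.

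Around the exit tunnel, where the new chain leaves, 2 of 6 genes were lower and 0 higher (1 higher at an unadjusted p under 0.05). MRPL24 had 49.3 and 46.4 CPM in siCBX3 and 59.6 and 68.1 CPM in siNC (log2 fold change -0.42, adjusted p = 0.000233). MRPL47 was the other (-0.26, adjusted p = 0.0284), but it did not pass without siCBX3 replicate 1 (-0.18, adjusted p = 0.230) or without siNC replicate 2 (-0.09, adjusted p = 0.462). MRPL47 shares 9.05% of its exon bases with ACTL6A on the opposite strand, which averaged 340 CPM in siCBX3 and 441 CPM in siNC (-0.37). MRPL45, which anchors the tunnel exit to the inner membrane, had 25.9 and 28.2 CPM in siCBX3 and 22.6 and 24.0 CPM in siNC (0.22, adjusted p = 0.0590). MRPL23, another protein of the tunnel exit, had 18.7 and 18.6 CPM in siCBX3 and 14.8 and 17.5 CPM in siNC (0.21, adjusted p = 0.116). Neither passed with all libraries, although their groups did not overlap, and both passed without siNC replicate 2 (MRPL45 0.27, adjusted p = 0.0419; MRPL23 0.34, adjusted p = 0.0203).

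The stalk, which recruits translation factors, had 1 lower and 0 higher of 5 genes (1 higher at an unadjusted p under 0.05), a share of lower genes close to that over all tested genes. MRPL11, at the base of the stalk, had 40.1 and 44.8 CPM in siCBX3 and 52.5 and 54.8 CPM in siNC (log2 fold change -0.34, adjusted p = 0.00186). It did not pass without siCBX3 replicate 1 (-0.26, adjusted p = 0.0700). MRPL10 had 13.2 and 12 CPM in siCBX3 and 10.7 and 11.9 CPM in siNC (0.16, adjusted p = 0.280). MRPL53 had 8.45 and 6.94 CPM in siCBX3 and 5.87 and 6.24 CPM in siNC (0.34, adjusted p = 0.0565), and 45.2% of its exon bases are shared with CCDC142 on the same strand. Without siCBX3 replicate 2, MRPL53 passed (0.48, adjusted p = 0.0232).

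The central protuberance, the part of the large subunit that faces the head of the small subunit, had 4 lower and 1 higher of 7 genes. MRPL38 had 65.1 and 63.5 CPM in siCBX3 and 89.5 and 95.4 CPM in siNC (log2 fold change -0.52, adjusted p = 4.51e-06), and 41.1% of its exon bases are shared, mostly with RP11-552F3.12 on the same strand (-0.25). MRPL18, whose bacterial counterpart binds the 5S ribosomal RNA, had 19.2 and 19.6 CPM in siCBX3 and 26.2 and 28.3 CPM in siNC (-0.49, adjusted p = 0.000136). MRPL40 (-0.33, adjusted p = 0.00433) and MRPL46 (-0.20, adjusted p = 0.0455) were the other lower genes. MRPL40 did not pass without siCBX3 replicate 1 (adjusted p = 0.0749), and MRPL46 did not pass without any of siCBX3 replicate 1 (adjusted p = 0.269), siCBX3 replicate 2 (adjusted p = 0.118) and siNC replicate 2 (adjusted p = 0.217). MRPL48, in the same region, was the higher gene.

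The 3 higher genes all encode large-subunit proteins, and 1 of them kept its call under every alternative tried. MRPL15, whose bacterial counterpart binds ribosomal RNA inside the subunit, had 52.7 and 44.2 CPM in siCBX3 and 31.0 and 31.1 CPM in siNC (log2 fold change 0.64, SE 0.09, adjusted p = 2.84e-06). Its gene lies at chr8:54135210-54147901 on the plus strand and overlaps no exon of another tested gene. MRPL41, a mitochondria-specific protein, had 34.9 and 26.0 CPM in siCBX3 and 23.4 and 22.5 CPM in siNC (0.41, SE 0.11, adjusted p = 0.00339). The siCBX3 libraries of MRPL41 differed from each other by more than the lower of them did from siNC, and without siCBX3 replicate 1 it did not pass (0.18, adjusted p = 0.295). MRPL48 had 31.1 and 33.2 CPM in siCBX3 and 22.9 and 27.9 CPM in siNC (0.34, SE 0.10, adjusted p = 0.00615). MRPL48 did not pass without siCBX3 replicate 2 (0.29, adjusted p = 0.0533) or without siNC replicate 1 (adjusted p = 0.111), and neither MRPL41 nor MRPL48 passed on deposited RPKM values.

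In the small subunit, MRPS17 and MRPS9 stood apart from the rest. MRPS17, with a bacterial counterpart that binds the 16S ribosomal RNA, had 275 and 365 counts in siCBX3 and 620 and 745 in siNC, or 7.80 and 9.63 CPM against 16.5 and 17.7 CPM. The level in siCBX3 was 51.1% of that in siNC (log2 fold change -0.97, SE 0.12, adjusted p = 4.01e-07). The gene lies at chr7:55951819-55956501 on the plus strand, and 27.0% of its exon bases are shared, mostly with RP11-15K19.2 on the same strand, which had a log2 fold change of -0.81. MRPS9, whose bacterial counterpart sits in the head, had 50.7 and 53.9 CPM in siCBX3 and 94.1 and 94.4 CPM in siNC (-0.85, SE 0.08, adjusted p = 2.53e-09). It lies at chr2:105037983-105099960 on the plus strand, and 8.88% of its exon bases are shared with UTAT33 on the opposite strand (-0.96).

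Mitochondria-specific small-subunit proteins came next. MRPS23 had 57.2 and 63.9 CPM in siCBX3 and 82.4 and 91.7 CPM in siNC (log2 fold change -0.52, SE 0.08, adjusted p = 1.15e-05). MRPS31 had 13.9 and 16.1 CPM in siCBX3 and 21.8 and 21.2 CPM in siNC (-0.52, SE 0.10, adjusted p = 0.000204). MRPS26 had 40.6 and 42.6 CPM in siCBX3 and 52.3 and 60.7 CPM in siNC (-0.44, SE 0.09, adjusted p = 0.000162). The groups of these genes did not overlap, and none of the 3 overlaps an exon of another tested gene. The pseudogene MRPS31P4 averaged 11.6 CPM over both groups, and whether it and MRPS31 exchange reads was not assessed. MRPS34, at -0.31 (adjusted p = 0.00224), and MRPS5, which had the highest CPM of all members and a bacterial counterpart at the mRNA entry channel (-0.31, adjusted p = 0.00101), were lower by smaller amounts.

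The head of the small subunit had 3 lower and 0 higher of 7 genes (1 higher at an unadjusted p under 0.05), with MRPS9, MRPS31 and MRPS14 lower. MRPS14 had 26.6 and 25.9 CPM in siCBX3 and 35.9 and 32.5 CPM in siNC (log2 fold change -0.38, adjusted p = 0.00111). It shares 13.5% of its exon bases with CACYBP on the opposite strand, which averaged 136 CPM in siCBX3 and 217 CPM in siNC (-0.67). MRPS33, a mitochondria-specific head protein, had the highest small-subunit fold change, with 12.7 and 14.5 CPM in siCBX3 and 11.4 and 11.3 CPM in siNC (0.26, SE 0.12, adjusted p = 0.0695). MRPS27, a pentatricopeptide repeat protein, had 42.1 and 42.4 CPM in siCBX3 and 37.3 and 36.6 CPM in siNC (0.19, adjusted p = 0.0570). Neither passed, although the groups of both did not overlap, and MRPS16 (0.10, adjusted p = 0.418) and MRPS35 (0.08, adjusted p = 0.410) overlapped. MRPS36 had 7.09 and 6.28 CPM in siCBX3 and 7.64 and 5.98 CPM in siNC (-0.02, adjusted p = 0.909).

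The 3 MRPS18 paralogues, which come from 1 bacterial protein and take different places in the mitoribosome, were all lower. MRPS18A, placed in the large subunit, had 43.5 and 42.2 CPM in siCBX3 and 53.8 and 47.9 CPM in siNC (log2 fold change -0.25, SE 0.08, adjusted p = 0.0183). MRPS18B had 45.4 and 49.4 CPM in siCBX3 and 54.7 and 62.4 CPM in siNC (-0.31, SE 0.09, adjusted p = 0.00475). MRPS18C had 55.3 and 55.0 CPM in siCBX3 and 65.2 and 74.4 CPM in siNC (-0.34, SE 0.08, adjusted p = 0.00142). MRPS18A shares 47.0% of its exon bases with RSPH9 (-0.48), and MRPS18C shares 40.2% with FAM175A (-0.12), both on the opposite strand. MRPS18C passed in every fit that left out a library. MRPS18A did not pass without siCBX3 replicate 1 (adjusted p = 0.0603), siCBX3 replicate 2 (adjusted p = 0.131) or siNC replicate 1 (adjusted p = 0.170), and MRPS18B did not pass without siCBX3 replicate 1 (adjusted p = 0.0844) or siNC replicate 2 (adjusted p = 0.0631).

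The lower genes included proteins of bacterial origin and mitochondria-specific ones alike. In the large subunit 13 of 29 genes with bacterial counterparts were lower and 1 was higher (median log2 fold change -0.15), and 8 of 18 mitochondria-specific genes were lower and 2 higher (median -0.14). In the small subunit 8 of 17 genes with bacterial counterparts were lower (median -0.16), as were 5 of 9 mitochondria-specific genes (median -0.31), with 0 higher in either class. MRPL55 and MRPL58, assigned to neither class, were both lower. The 78 genes lie on 21 chromosomes, with 8 each on chromosomes 1, 2 and 17 and 7 on chromosome 11.

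Reads of overlapping genes could not be told apart for part of the members, because the counting settings for strand and for shared reads are unknown here. Of the 78 genes 40 have exon bases in common with another tested gene, as do 47.5% of all tested genes, and for 27 of them the gene with the most shared bases lies on the opposite strand. Only MRPL12 shares over 50% of its exon bases (68.2%). Among the 38 members that share none, 17 were lower and 3 higher (median log2 fold change -0.13). Of these, 11 of 26 large-subunit genes were lower and 3 higher, and 6 of 12 small-subunit genes were lower and 0 higher. MRPL37 shares 6.79% of its exon bases, mostly with CYB5RL on the opposite strand, which had a log2 fold change of 0.15. The table also holds 28 rows for mitochondrial ribosomal protein pseudogenes, of which 3 were tested and the most abundant, MRPS31P4, averaged 11.6 CPM, so a misplaced share of the reads of their parent genes was not assessed.

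Mitoribosome proteins with other names did not all follow the members. GADD45GIP1, a large-subunit protein, had 76.5 and 83.7 CPM in siCBX3 and 74.2 and 87.9 CPM in siNC (log2 fold change -0.02, adjusted p = 0.879). Of 4 small-subunit proteins, AURKAIP1 fell (78.4 and 78.0 CPM in siCBX3 against 102 and 106 CPM in siNC, -0.41, adjusted p = 6.93e-05). PTCD3 rose (103 and 111 CPM in siCBX3 against 84.4 and 85.7 CPM in siNC, 0.33, adjusted p = 0.000910), as did DAP3 (47.3 and 48.8 CPM in siCBX3 against 37.8 and 37.8 CPM in siNC, 0.35, adjusted p = 0.00113). PTCD3 did not pass on deposited RPKM values with a pseudocount of 1 (adjusted p = 0.0587). CHCHD1 did not pass (0.00, adjusted p = 0.977). DAP3 and CHCHD1 were named after their values had been seen.

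The genes that build and serve the mitoribosome were mixed, to be read against 24% lower and 24.4% higher over all tested genes. Translation factors (23.5% lower and 23.5% higher) and chaperones and proteases (23.1% and 23.1%) were near those shares. Assembly factors had 35.7% lower and 14.3% higher, and tRNA synthetases and related enzymes 15% lower and 30% higher. Of 28 assembly factors 10 were lower and 4 higher (median log2 fold change -0.13), with the rRNA methyltransferases MRM3 and MRM2 lower (-0.74, adjusted p = 1.27e-07, and -0.51, adjusted p = 1.09e-05). Without siCBX3 replicate 2 the lower assembly factors numbered 5. Of 17 translation factors 4 were lower and 4 higher (median 0.11), among them SLIRP, an mRNA-binding protein, at -0.56 (adjusted p = 1.95e-06) and MTRF1, a release factor, at 0.95 (adjusted p = 5.54e-05). Without siCBX3 replicate 1 there were 2 in each direction. Of 20 mitochondrial tRNA synthetases and related enzymes 3 were lower and 6 higher (median 0.12), with GATC at -0.59 (adjusted p = 9.06e-06) and WARS2 at 0.51 (adjusted p = 1.32e-05). Without siCBX3 replicate 2 the lower ones numbered 1. Of 13 mitochondrial chaperones and proteases 3 were lower and 3 higher (median 0.07), with the import chaperone factor GRPEL1 at -1.03 (adjusted p = 6.94e-11) and prohibitin PHB at -0.64 (adjusted p = 1.23e-07). Without either siCBX3 library the higher ones numbered 1.

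A list of genes for mitochondrial DNA upkeep, transcription, and RNA processing or decay had 8 of 15 lower and 2 higher (median log2 fold change -0.22). Fewer were lower when either siCBX3 library was left out. Among the RNA processing or decay genes, PNPT1 (-0.50), ELAC2, HSD17B10 and TRMT10C were lower and KIAA0391 (0.62) was higher. POLRMT, the mitochondrial RNA polymerase, did not pass (-0.04). TFAM, which packages mitochondrial DNA and starts its transcription, had 34.5 and 36.9 CPM in siCBX3 and 54.6 and 60.4 CPM in siNC (-0.69, adjusted p = 3.36e-07). SSBP1, which binds single-stranded mitochondrial DNA, had 68.4 and 69.7 CPM in siCBX3 and 106 and 103 CPM in siNC (-0.60, adjusted p = 4.75e-07). Of 10 nuclear regulators of mitochondrial genes 5 were lower and 3 higher (median -0.24), and on deposited RPKM values the higher ones numbered 1. Counts of both lists are to be read against 24% lower and 24.4% higher over all tested genes. MYC, a growth-promoting transcription factor, had 4.60 and 3.93 CPM in siCBX3 and 9.71 and 8.95 CPM in siNC (-1.13, adjusted p = 8.06e-07). PPARGC1B, a coactivator of mitochondrial gene expression, had 26.3 and 24.4 CPM in siCBX3 and 40.5 and 32.7 CPM in siNC (-0.53, adjusted p = 0.000106). The factors whose motifs were searched in the promoters, named after their values had been seen, went in different directions. NRF1 had 7.6 and 7.36 CPM in siCBX3 and 11.4 and 9.95 CPM in siNC (-0.51, adjusted p = 0.00220). YY1 had 97.3 and 102 CPM in siCBX3 and 73.9 and 84.2 CPM in siNC (0.33, adjusted p = 0.00133). Of the GABP subunits, GABPB2 was higher (0.38, adjusted p = 0.00202), while GABPA (-0.17, adjusted p = 0.0844) and GABPB1 (0.09, adjusted p = 0.470) did not pass. YY1 and GABPB2 did not pass on deposited RPKM values (adjusted p = 0.0956 and 0.121 with a pseudocount of 1), and GABPA passed without siNC replicate 1 (adjusted p = 0.0339) and with scaling by library totals (adjusted p = 0.0166).

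Nuclear respiratory chain genes had 44.2% lower and 11.7% higher, against 47.4% lower and 3.85% higher of the mitochondrial ribosomal protein genes, while cytosolic ribosomal protein genes had more higher than lower ones with TMM scaling. Of 77 tested respiratory chain genes 34 were lower and 9 higher (median log2 fold change -0.18), with NDUFB8, a complex I subunit, at -0.76 (adjusted p = 1.71e-08). Without siCBX3 replicate 1 the higher ones numbered 5, as they did with scaling by library totals, and on RPKM they numbered 4. Of 82 tested cytosolic ribosomal protein genes 7 were lower and 35 higher (median 0.14), with RPL13A at 0.73 (adjusted p = 2.30e-08) and RPL11 at 0.60 (adjusted p = 4.42e-07). The higher ones numbered 17 with scaling by library totals and 8 on deposited RPKM values, so their count depended on the scaling. It also fell when either siCBX3 library was left out. The lower ones numbered at most 10 under any alternative, and the median lay between 0.0605 and 0.205. Of the 13 mRNAs of the mitochondrial genome, the templates that the mitoribosome translates, 6 were lower and 0 higher (median -0.16), with MT-ND2 at -0.75 (adjusted p = 2.00e-06) and MT-ND3 at -0.56 (adjusted p = 9.46e-06). Without siCBX3 replicate 2 the lower ones numbered 3, without siNC replicate 2 they numbered 11, and without siNC replicate 1 there were 4 higher ones. Lists were compared by their counts only, and no difference between lists was tested.

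**Figure D5:**
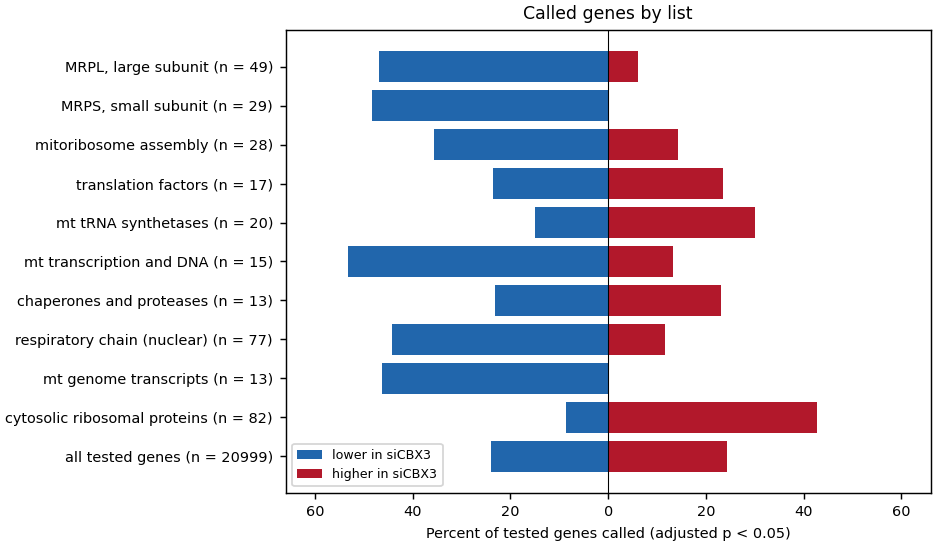
Percent of tested genes (horizontal axis) that were lower, drawn to the left, and higher, drawn to the right, in siCBX3 at adjusted p under 0.05, for the large-subunit and small-subunit members, related lists and all 20999 tested genes, with the number tested beside each name. The members show 46.9% and 48.3% lower with 6.12% and 0% higher, against 24% lower and 24.4% higher over all tested genes.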

How the data were processed

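Stranded mRNA sequencing of total RNA from 4 libraries was analysed from the tables the authors deposited: whole-number read counts per gene and RPKM values, 1 library per column per the file headers. The submitters' processing notes name Trimmomatic 0.36, STAR 2.5.3a, Subread 1.5.1 with its featureCounts program, and the GRCh38 build. Strand and shared-read settings, annotation release and handling of molecular identifiers are not given in the sources used here. RPKM values as the authors deposited them match counts divided by exon length and by total count (largest relative difference 3.8e-07), so they carry no TMM scaling.

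Counts were tested in R 4.3.3 with edgeR 4.0.16: filterByExpr (minimum count 10, minimum total 15), TMM factors between 0.966 and 1.045, and quasi-likelihood fits over all 4 libraries with a single group term (2 residual and 22 prior degrees of freedom). Calls are Benjamini-Hochberg adjusted p under 0.05 across 20999 genes. CPM values of members are TMM-scaled, marker CPM values are scaled by library totals. Replicates of a group differed by more than counting noise (chi-square per degree of freedom 7.58 in siCBX3 and 13.1 in siNC). Errors reflect counting and library variation only, as reads need not be independent molecules. The model was tested on simulated counts.

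The genes named are CBX3, the 7 highest and 7 lowest large-subunit and 5 highest and 5 lowest small-subunit members by fold change, the 2 of each subunit with the highest RPKM, MRPS18A, MRPS18B, MRPS18C, MRPS30, MRPS36, MRPL12, MRPL45, and 2 genes per other list with the smallest adjusted p. 1 gene this rule took is not reported here. Other members named, and the structural regions, were chosen after values were seen, as was a restriction of the ribosomal and respiratory lists to coding genes by GENCODE and RefSeq. The members and lists were chosen with earlier results of these data known. Alternatives used DESeq2 1.42.0 and limma 3.58.1, on counts or on log2(RPKM + 1) and log2(RPKM + 0.1). Promoters and figures used Python 3.11.15, pandas 2.3.3, numpy 2.4.6 and matplotlib 3.10.9.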

Additional observations from a re-analysis of the deposited data

How the results depend on the processing

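Of the 40 mitochondrial ribosomal protein genes called, 26 (25 lower and 1 higher) kept their call and sign under all 14 alternative fits. The limit is 2 libraries a group: leaving out 1 library gave 27 to 37 lower and 2 to 5 higher genes, with a median log2 fold change between -0.207 and -0.134 (large subunit -0.237 to -0.104, with 2 to 5 higher; small subunit -0.231 to -0.180). MRPS36 and GADD45GIP1, neither of them called, changed sign in these fits, between -0.192 and 0.159 and between -0.135 and 0.112. Scaling by library totals gave medians of -0.234 (all members), -0.233 (large) and -0.235 (small), where the median of all tested genes was -0.0854, and upper-quartile factors gave -0.200, -0.198 and -0.202. Deposited RPKM values, also scaled to library totals, gave -0.224, -0.224 and -0.209 with a pseudocount of 1, and -0.230, -0.228 and -0.231 with 0.1, and 1 higher gene with either, in the large subunit. DESeq2 gave 34 lower and 3 higher genes, and no filter on low counts 35 and 3.

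Without members that share exon bases, 20 genes were called (17 lower), 14 in the large subunit (11 lower) and 6 in the small (6 lower), since 38 genes were left. Placement by structure gave a small-subunit median of -0.218. The ratio of the summed large to small subunit level, 0.974 in siCBX3 and 0.998 in siNC, was 1.286 in siCBX3 and 1.280 in siNC with RPKM, 1.086 in siCBX3 and 1.103 in siNC by structure, and 1.450 in siCBX3 and 1.406 in siNC without members that share exon bases. The order of the groups thus differed between these settings, and the cause was not tested.

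The groups share replicate numbers, and no pairing is stated, so the main fit uses none. Over all tested genes, the deviations of replicate 1 from the group mean had a correlation of 0.0287 between the groups. The deviations of replicate 2 mirror these, so the value cannot show whether the numbers are pairs. Each mRNA of the mitochondrial genome was higher in replicate 1 than in replicate 2 in both groups. MT-ND2 had 3416 and 2868 CPM in siCBX3 and 6077 and 4476 CPM in siNC. A fit with the replicate number as a block called 37 lower and 4 higher members, with a median of -0.153.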
